A study of Mus musculus with 16 samples.

Results

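The amino acid sensing machinery upstream of mTORC1 was examined in erythroblasts of the mouse foetal liver with and without Nprl3. The set holds 42 genes of the 55416 in the read-count table, matched by gene symbol: the GATOR1 partners of Nprl3, GATOR2, KICSTOR, the sestrin and CASTOR sensors, the Rag GTPases and Ragulator, the folliculin complex, Slc38a9, the subunits and inhibitors of mTOR, the TSC complex, Rheb, Redd1 (Ddit4), and the S6 kinases and 4E-BPs. Nprl3 itself is the targeted gene and is given separately. RNA was sequenced from stage 1 (S1) and stage 3 (S3) erythroblasts, sorted by Ter119 and CD71 from individual E13.5 embryos on a C57BL/6J background. Each embryo gave 1 library per stage, so that 4 wild-type (WT), 2 heterozygous (Nprl3+/-) and 2 homozygous knockout (Nprl3-/-) embryos gave 16 libraries. The knockout was constitutive, present in all cells of the embryo, and removed the Nprl3 promoter, while the alpha-globin enhancers within the gene were left in place in every genotype. No embryo received a treatment, both Nprl3+/- embryos were male, and each of the other genotypes had as many males as females. The labels name an embryonic stem cell line beside the foetal liver titles, yet 4 or all 5 of the stem cell markers Pou5f1, Nanog, Sox2, Zfp42 and Esrrb were at 0 in every group.

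mTORC1 is a kinase complex that promotes translation, ribosome production and cell growth when amino acids are plentiful. Rag GTPase heterodimers, anchored to the lysosome by Ragulator, recruit mTORC1 to Rheb, its direct activator there, whereas GATOR1, of which Nprl3 is a subunit with Nprl2 and Depdc5, switches the Rags off. GATOR2 restrains GATOR1 and is in turn held by the leucine-sensing sestrins and the arginine-sensing CASTOR proteins, KICSTOR places GATOR1 on the lysosome, and in red cell precursors this pathway has to match protein synthesis with the supply of amino acids and haem iron.

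The libraries held between 20666044 and 37609502 counted read pairs. The globin share of the counts was 10.0% to 11.9% at S3 and 0.0739% to 1.07% at S1, where WT embryos 0 and 8 had the highest shares, 1.07% and 1.00%. In WT libraries the early erythroid markers Kit, Myb, Gata2 and Cd34 summed to 152 to 233 CPM (counts scaled to an equal library total) at S1 and to 1.76 to 4.59 CPM at S3. The S1 libraries of WT embryos 1 and 8 stood furthest from the other WT libraries of that stage (Pearson r across genes of 0.972 and 0.966, against at least 0.981 for every other library of either stage). Calls between the stages that were gained or lost without either embryo are given below. The levels of the 9 neutrophil markers summed to 120 to 1275 CPM in WT S1 libraries, 1519 to 1535 CPM in Nprl3+/- and 1573 to 1645 CPM in Nprl3-/-, with Ly6g at 0 throughout. At S3 they were at most 10.0 CPM in any library.

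In WT cells the pathway was expressed at both stages, with a wide range between its parts. Values here are read counts normalised for library size and composition (TMM) and divided by the gene length in kilobases, the only scale on which different genes are compared. Lamtor5, a small Ragulator subunit, had the highest level at S1, at 4613 ± 1466 per kilobase (SD, n = 4). Next came Sec13 (2193 ± 326), Eif4ebp1 (1898 ± 638), Lamtor2 (1828 ± 665) and Seh1l (1558 ± 253), and the spreads of these 4 neighbours in the order overlapped. Sec13 and Seh1l are GATOR2 subunits that also serve the nuclear pore, and Sec13 serves the COPII coat as well. At the other end, Rragd stood at 3.61 ± 2.90, Castor2 at 1.71 ± 0.449, Ddit4 at 1.00 ± 1.16 and Sesn3 at 0.325 ± 0.356. Sesn3 and Ddit4 had no more than 17 and 5 raw counts in any WT library, so that changes in them were not detectable at this depth. Among the catalytic and scaffold subunits, Mtor (25.6 ± 8.21) and Rptor (25.96 ± 11.7) were at similar levels per kilobase, and Rictor was higher at 95.2 ± 22.2.

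**Figure D1:**
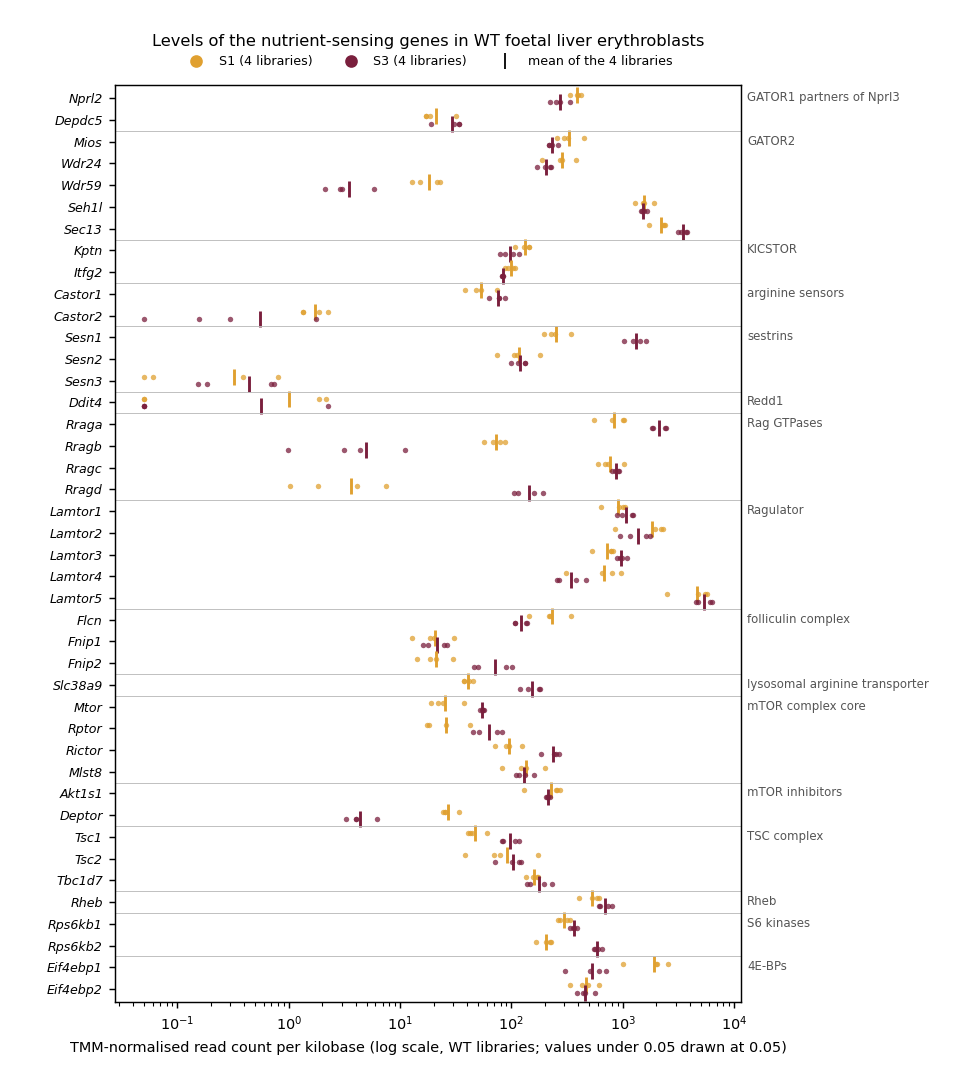
Level of each of the 42 genes in WT S1 and S3 libraries, as TMM-normalised read count per kilobase on a log scale, grouped by role; points are the 4 libraries of a stage and vertical ticks their means. Rragd lies far to the right of its S1 value at S3 (143 against 3.61 per kilobase), while Rragb, Wdr59 and Deptor lie to the left of their S1 values.

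The stage comparison asked how the pathway changes as normal erythroblasts mature from S1 to S3. Of the 39 members with a mean normalised count above 10, 11 were higher at S3 and 8 were lower, while 20 did not pass the threshold (edgeR quasi-likelihood test, Benjamini-Hochberg adjusted p under 0.05 over 13514 genes). The shares of all genes tested were 30.6% higher and 35.0% lower, 65.6% in all, and that of the members was 48.7% in all. The median log2 fold change of the members was 0.20, and that of all genes tested was -0.08. Without WT embryo 1 the members' median was 0.11. The members called without it were 11 higher and 9 lower, where 3960 and 4397 of all 13486 genes were called. Without embryo 8 they were 13 and 7 (4294 and 4570 of 13544 genes). Without embryo 5 they were 11 and 5 (3412 and 3971 of 13493 genes). In the full fit 4142 genes were higher and 4728 lower. Without embryo 8 Depdc5 (log2 fold change 0.68, edgeR adjusted p = 0.032) and Rragc (0.36, adjusted p = 0.044) were called higher, and without embryo 1 Wdr24 was called lower (-0.53, adjusted p = 0.021). With the 2 libraries of an embryo paired in a replicate block, 14 members were higher and 10 lower, where 69.6% of all genes were called, the additions being Lamtor3 (log2 fold change 0.43, edgeR adjusted p = 0.028), Rheb (0.39, adjusted p = 0.021), Rps6kb1 (0.30, adjusted p = 0.046), Kptn (-0.45, adjusted p = 0.045) and Wdr24 (-0.44, adjusted p = 0.030). All 19 changes had the same direction in each of the 4 Nprl3+/- and Nprl3-/- embryos, which did not enter the fit, as did 96.5% of all genes called. Other cells' markers also moved with the stage in WT: the 14 macrophage markers summed to 61.2 to 126 CPM at S1 and 205 to 271 CPM at S3, with 11 of 13 tested called higher, and the 10 hepatoblast markers to 45.4 to 280 and 156 to 755 CPM, with 3 of 10 called higher. All 8 neutrophil markers tested were called lower, from the S1 sums above to at most 4.85 CPM at S3 (median log2 fold change -7.80), and of 8 megakaryocyte markers 2 were called higher and 3 lower (39.6 to 72.5 CPM at S1 and 57.0 to 102.5 CPM at S3). The part of these lists in the members' changes was not tested. All values are relative levels within a library, scaled for its composition, and globin takes a larger share of the counts at S3. In bulk samples fewer cells expressing a gene and less RNA per cell cannot be told apart.

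The Rag GTPases showed the largest changes in both directions. Rag heterodimers pair RagA or RagB with RagC or RagD. Rragd (chr4:32983037-33022180, mm39) had 21.3, 9.40, 5.27 and 38.7 normalised counts in the S1 libraries of WT embryos 0, 1, 5 and 8, and 593, 546, 820 and 1002 at S3. All S3 libraries lay far above all S1 libraries, with a log2 fold change of 5.31 (SE 0.52, edgeR adjusted p = 9.8e-06). Rragb (chrX:151922977-151954939) went the other way, from 155, 198, 178 and 129 normalised counts at S1 to 25.1, 9.90, 7.07 and 2.23 at S3. The stages did not overlap, and the log2 fold change was -3.81 (SE 0.49, edgeR adjusted p = 7.1e-05). Rraga, which encodes RagA, rose from 1614, 898, 1651 and 1293 to 2955, 3950, 3841 and 3047, again without overlap (log2 fold change 1.34, SE 0.20, edgeR adjusted p = 2.2e-04). Rragc gave 2464, 2001, 2324 and 3403 at S1 and 2673, 3066, 2827 and 3036 at S3, with overlapping stages and a log2 fold change of 0.20 (SE 0.15, edgeR adjusted p = 0.28, and 0.044 without embryo 8).

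The promoters of the pair with the largest opposite changes, of Rraga, and of the Ragulator gene Lamtor4, which was lower at S3, are shown as examples of windows with and without an E-box. The sequences are those of RefSeq on GRCm38.p6, from 250 bases before to 50 bases after the annotated start, at chr4:32982748-32983047 (plus strand) for Rragd, chrX:153139708-153140007 (plus strand) for Rragb, chr4:86575423-86575722 (plus strand) for Rraga and chr5:138255232-138255531 (plus strand) for Lamtor4. Capitals mark matches on either strand to TCACGTG, which contains the E-box CACGTG and is the core of the site bound by TFEB and TFE3, and to TGATGNAA, an element bound by ATF4.
Rragd: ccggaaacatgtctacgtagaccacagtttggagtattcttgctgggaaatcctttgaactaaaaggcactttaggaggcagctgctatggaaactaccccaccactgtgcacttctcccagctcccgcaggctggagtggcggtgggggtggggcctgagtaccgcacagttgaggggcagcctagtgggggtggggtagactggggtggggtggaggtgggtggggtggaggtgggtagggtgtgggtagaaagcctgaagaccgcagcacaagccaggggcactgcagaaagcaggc
Rragb: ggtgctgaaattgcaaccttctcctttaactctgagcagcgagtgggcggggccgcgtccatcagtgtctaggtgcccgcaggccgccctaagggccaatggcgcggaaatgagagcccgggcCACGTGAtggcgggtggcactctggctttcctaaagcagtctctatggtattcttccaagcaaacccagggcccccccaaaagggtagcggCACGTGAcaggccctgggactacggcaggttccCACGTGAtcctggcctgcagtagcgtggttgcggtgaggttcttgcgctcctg
Rraga: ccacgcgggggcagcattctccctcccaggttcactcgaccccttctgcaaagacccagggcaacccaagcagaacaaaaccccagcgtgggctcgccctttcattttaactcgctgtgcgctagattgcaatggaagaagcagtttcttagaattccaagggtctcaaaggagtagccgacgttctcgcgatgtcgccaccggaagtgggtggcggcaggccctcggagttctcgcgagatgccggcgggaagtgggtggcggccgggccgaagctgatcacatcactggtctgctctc
Lamtor4: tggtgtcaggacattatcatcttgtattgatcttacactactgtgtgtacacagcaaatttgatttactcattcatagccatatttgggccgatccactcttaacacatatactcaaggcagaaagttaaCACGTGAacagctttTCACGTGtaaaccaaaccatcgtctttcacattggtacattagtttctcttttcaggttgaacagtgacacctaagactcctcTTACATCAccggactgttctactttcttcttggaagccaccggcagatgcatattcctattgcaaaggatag
Rragb held 3 matches to TCACGTG, starting 127, 36 and 3 bases before the annotated start, and Lamtor4 held 2, starting 120 and 105 bases before it, beside 1 match to TGATGNAA at 22 bases. Neither Rragd nor Rraga held any of the motifs searched, which also included the GATA element AGATAA. The other windows of the members with the largest changes held none either, both those of the lower genes Wdr59 and Flcn and those of the higher genes Sesn1, Slc38a9 and Fnip2. Across the 37 windows of 36 members in the table, 6 held TCACGTG (16.2%, those of Fnip1, Lamtor1, Lamtor4, Rheb, Rragb and Rragc), and of all 32851 windows 3.77% did. For CACGTG the shares were 18.9% of the members' windows and 7.15% of all, for TGATGNAA 2.7% and 3.97%, and for AGATAA 10.8% and 11.2%. Wdr24, Seh1l, Lamtor3, Deptor, Rps6kb2 and Eif4ebp1 were the members without an entry. A match describes the letters only, and these shares carry no test.

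The sensors and the transporter that feed the Rags moved upward or did not pass the threshold. Sesn1, a p53-inducible sestrin, rose from 895, 779, 975 and 1377 normalised counts at S1 to 5691, 4097, 4902 and 6494 at S3 in WT embryos 0, 1, 5 and 8 (log2 fold change 2.41, SE 0.20, edgeR adjusted p = 4.1e-06). Every S3 library lay far above the highest S1 library. Slc38a9, the lysosomal arginine transporter that signals to the Rags, went from 749, 627, 630 and 691 to 2942, 2010, 2356 and 2993 (log2 fold change 1.94, SE 0.17, edgeR adjusted p = 4.8e-06). Its stages were equally well separated. Sesn2, the stress-induced sestrin, had 388, 257, 365 and 626 normalised counts at S1 and 457, 395, 348 and 460 at S3, within the same range. Castor1 had 60.7 to 117 at S1 and 98.2 to 137 at S3 (log2 fold change 0.51, edgeR adjusted p = 0.10), and Castor2 was too low to test, with 11, 14, 19 and 26 raw counts at S1 and 0 to 10 at S3.

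GATOR1 and GATOR2 did not move as units. Nprl2 went from 786, 805, 846 and 672 normalised counts at S1 to 556, 678, 512 and 451 at S3 (log2 fold change -0.50, SE 0.17, edgeR adjusted p = 0.024), with ranges that overlapped slightly, and the call was lost without embryo 0 (adjusted p = 0.11) or embryo 5 (adjusted p = 0.15). Depdc5, the largest GATOR1 subunit, had 220, 202, 202 and 376 at S1 and 401, 224, 362 and 402 at S3 (log2 fold change 0.49, edgeR adjusted p = 0.12). Its S1 library of embryo 8 stood apart, and without that embryo the gene was called higher (0.68, edgeR adjusted p = 0.032). Nprl3 rose 6.47-fold, from 804 ± 173 to 5158 ± 1010 normalised counts (SD, n = 4, log2 fold change 2.69, edgeR adjusted p = 1.5e-06), a count that at S3 also takes in RNA made from the alpha-globin enhancers inside the gene. In GATOR2, Wdr59 dropped from 133, 202, 113 and 192 to 51.6, 25.5, 18.9 and 26.8, without overlap (log2 fold change -2.37, SE 0.36, edgeR adjusted p = 2.1e-04). Sec13 rose from 7694, 7344, 7450 and 5439 to 9998, 11740, 12080 and 10630 (log2 fold change 0.67, SE 0.16, edgeR adjusted p = 0.0036). Mios, which links the GATOR2 subunits, had 1951, 1695, 2118 and 2937 at S1 and 1707, 1512, 1434 and 1440 at S3 (log2 fold change -0.50, SE 0.16, edgeR adjusted p = 0.020), a call lost without embryo 5 (-0.48, adjusted p = 0.12) or embryo 8 (-0.28, adjusted p = 0.11). Wdr24 (log2 fold change -0.46, adjusted p = 0.063, and 0.021 without embryo 1) and Seh1l (-0.01, adjusted p = 0.94) did not pass. The KICSTOR genes Kptn (-0.44, adjusted p = 0.059) and Itfg2 (-0.23, adjusted p = 0.14) did not pass either, so that of the 2 members neither was called.

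Ragulator and the folliculin complex, which act on the Rag dimer, held 1 lower and 4 uncalled, and 1 higher, 1 lower and 1 uncalled member. Lamtor4 had 852, 1260, 1034 and 407 normalised counts at S1 and 335, 604, 492 and 348 at S3, with overlapping stages (log2 fold change -1.01, SE 0.34, edgeR adjusted p = 0.024), and the call was lost without embryo 0 (adjusted p = 0.10) or embryo 5 (adjusted p = 0.085). The log2 fold changes of Lamtor1, Lamtor2, Lamtor3 and Lamtor5 ranged from -0.43 to 0.41. Flcn, the GTPase-activating subunit for RagC and RagD, fell from 963, 622, 951 and 1479 to 602, 468, 468 and 583 (log2 fold change -0.90, SE 0.23, edgeR adjusted p = 0.0055). Its highest S3 library lay just under its lowest S1 library. The folliculin partner Fnip2 rose from 181, 124, 160 and 262 to 783, 440, 402 and 875 (log2 fold change 1.79, SE 0.31, edgeR adjusted p = 4.8e-04). Its relative Fnip1, which is needed for B cell development, had 91.8 to 217 at S1 and 115 to 188 at S3 and a log2 fold change of 0.05 (edgeR adjusted p = 0.90).

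Mtor, Rptor and Rictor rose together, while the inhibitors and the TSC complex were divided. Mtor had 222, 379, 190 and 244 normalised counts at S1 and 574, 555, 560 and 531 at S3 (log2 fold change 1.10, SE 0.23, edgeR adjusted p = 0.0015), so that the S3 libraries were nearly equal and all above S1. Rptor, the defining subunit of mTORC1, went from 345, 245, 235 and 574 to 992, 611, 688 and 1105 (log2 fold change 1.30, SE 0.30, edgeR adjusted p = 0.0032). Rictor, that of mTORC2, went from 1621, 1202, 1516 and 2108 to 4266, 3144, 4066 and 4527 (log2 fold change 1.33, SE 0.18, edgeR adjusted p = 1.0e-04). Neither gene's stages overlapped, and Mlst8, the subunit shared by both complexes, had a log2 fold change of -0.04 (edgeR adjusted p = 0.91). Deptor, an inhibitor of both complexes, fell from 223, 298, 215 and 223 to 55.6, 35.4, 35.4 and 29.0 (log2 fold change -2.61, SE 0.27, edgeR adjusted p = 1.4e-05), and Akt1s1, which encodes the mTORC1 inhibitor PRAS40, had a log2 fold change of -0.09 (edgeR adjusted p = 0.72). In the TSC complex, which switches Rheb off, Tsc1 rose from 525, 508, 479 and 720 to 1281, 999, 984 and 1382 (log2 fold change 1.07, SE 0.18, edgeR adjusted p = 3.9e-04). Tsc2 and Tbc1d7 did not pass (log2 fold changes 0.21 and 0.16), nor did Rheb (0.37, edgeR adjusted p = 0.082).

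Of the genes for direct mTORC1 substrates, Rps6kb2 rose and Eif4ebp1 fell. Rps6kb2, which encodes S6K2, rose from 1159, 864, 1050 and 1176 to 2893, 2831, 3076 and 3364 normalised counts (log2 fold change 1.53, SE 0.14, edgeR adjusted p = 6.4e-06), without overlap, and 23.7% of its exonic bases are shared with neighbouring genes on the opposite strand. Rps6kb1 (S6K1) had a log2 fold change of 0.29 (edgeR adjusted p = 0.079). Eif4ebp1 (chr8:27750357-27766702), a repressor of cap-dependent translation that mTORC1 inactivates by phosphorylation, fell from 4400, 5573, 4474 and 2225 to 1115, 1357, 1556 and 670 (log2 fold change -1.84, SE 0.33, edgeR adjusted p = 6.1e-04). The lowest S1 library, that of embryo 8, still lay above every S3 library, and embryo 8 was also lowest at S3. Eif4ebp2 stayed within 1948 to 3535 at both stages (log2 fold change -0.00, SE 0.18, edgeR adjusted p = 0.99).

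**Figure D2:**
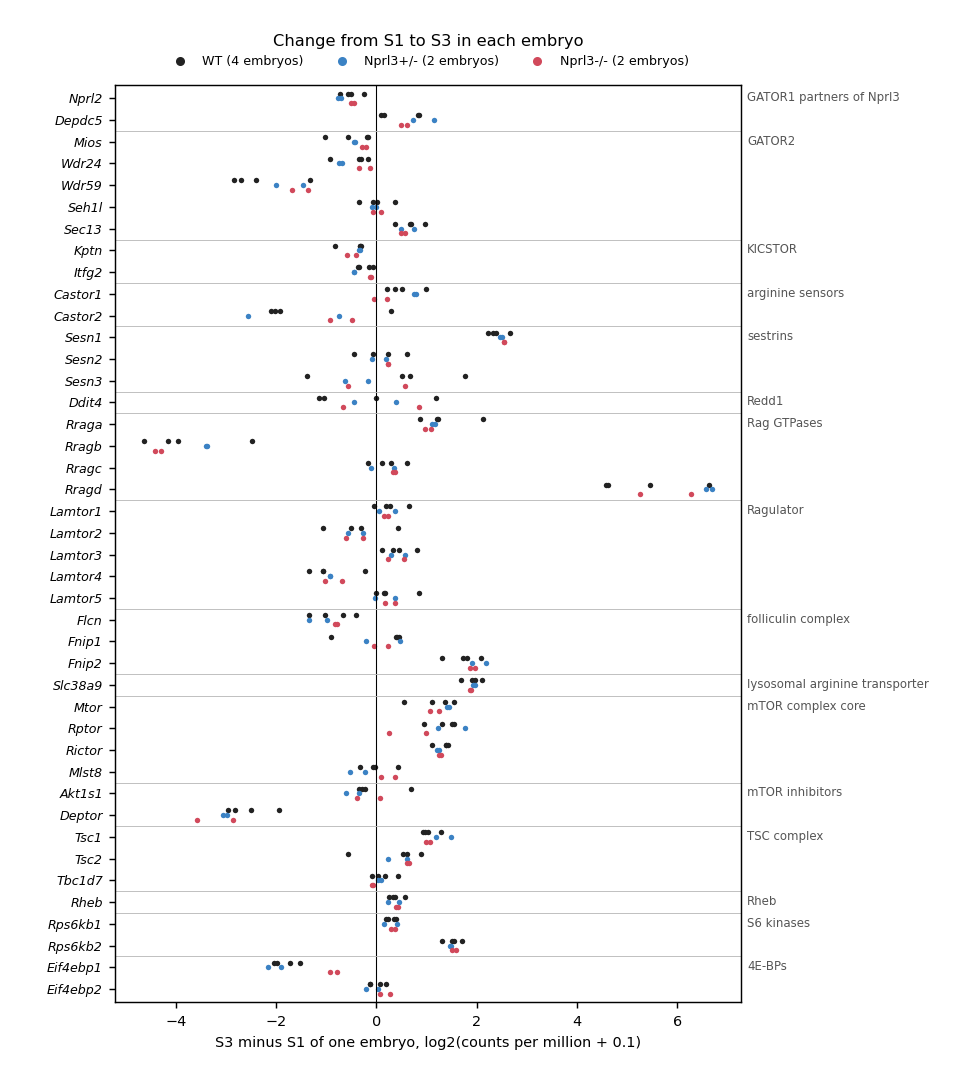
Difference between the S3 and the S1 library of each embryo in log2(CPM + 0.1), for the 42 genes grouped by role; black, blue and red points are WT, Nprl3+/- and Nprl3-/- embryos and the line marks no difference. For Rragd all 8 embryos lie between 4.59 and 6.70, and for Eif4ebp1 the Nprl3-/- embryos lie at -0.93 and -0.79, to the right of the 4 WT embryos at -2.04 to -1.52.

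The share of each paralogue in its set's transcripts per kilobase shifted between the stages. In the WT means the majority paralogue changed in 1 set, the S6 kinases, but this depends on the gene lengths used. Before division by length the S3 means were 3134 normalised counts for Rps6kb1 and 3041 for Rps6kb2. For Eif4ebp1 the length used was 2196 bases, where its longest annotated transcript has 7353. RagD made up 0.433 ± 0.260% of the RagC and RagD transcripts at S1 and 14.1 ± 3.25% at S3 (SD, n = 4, WT). RagB fell from 8.47 ± 3.46% of the RagA and RagB transcripts to 0.242 ± 0.248%. Rps6kb2 went from 41.0 ± 5.41% to 61.9 ± 2.71% of the S6 kinase transcripts, and Fnip2 from 50.9 ± 13.1% to 76.4 ± 3.22% of the Fnip transcripts. Sesn1 went from 68.7 ± 3.02% to 91.6 ± 1.14% of the sestrins, with Sesn2 falling from 31.2 ± 3.11% to 8.34 ± 1.15%. Eif4ebp1 fell from 78.4 ± 11.2% to 52.8 ± 12.3% of the 4E-BP transcripts, the one share whose S1 and S3 ranges came within 1 percentage point of each other (lowest S1 62.4%, highest S3 61.6%). The same shift between stages was present in the means of both other genotypes for all 6 sets.

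**Figure D3:**
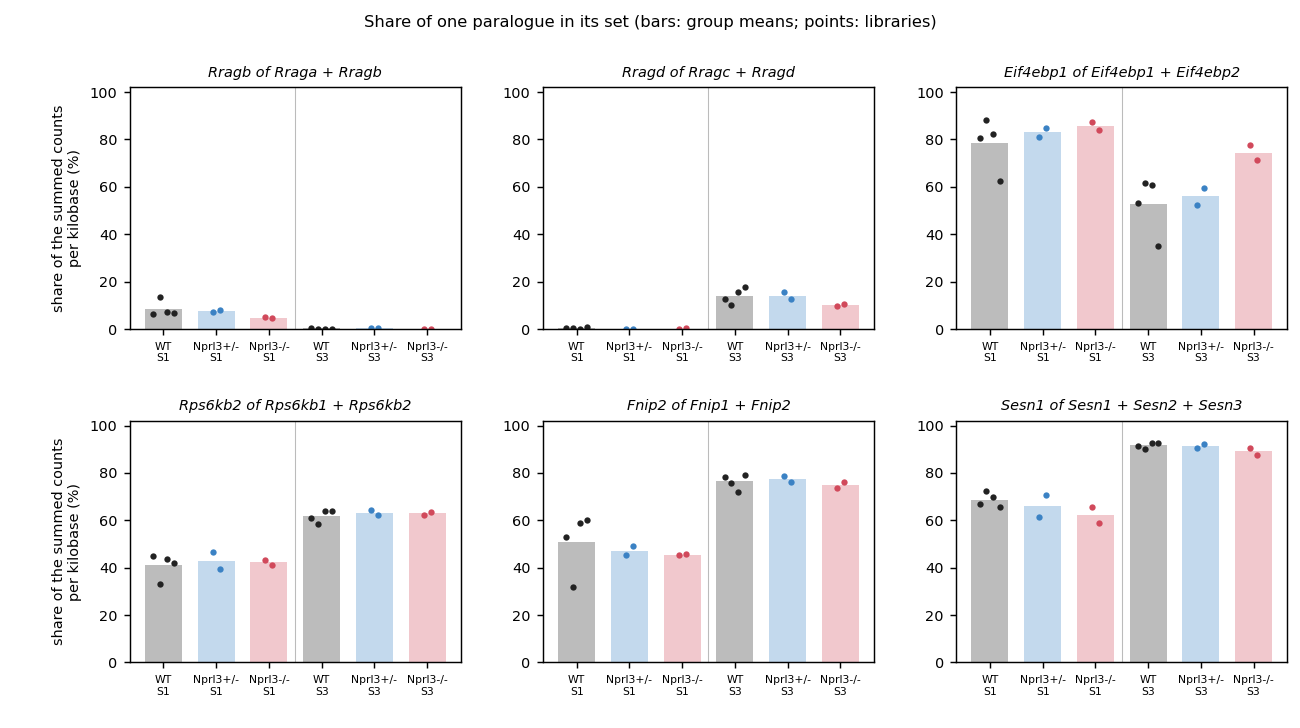
Share of 1 paralogue in the summed normalised counts per kilobase of its set, by genotype and stage; bars are group means and points are libraries (4 WT, 2 Nprl3+/- and 2 Nprl3-/- per stage). Bars start at 0; the S3 share of Eif4ebp1 is 74.4% in Nprl3-/- and 52.8% in WT, while the group means of the other 5 shares differ more between stages than between genotypes.

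Of 40 further genes that act on or below mTORC1 and mTORC2, 35 were tested between the stages in WT, and 10 were higher and 15 lower at S3, or 71.4%, where 65.6% of all genes were called. The higher genes with the smallest p were Maf1 (log2 fold change 1.75, edgeR adjusted p = 1.4e-06), a repressor of RNA polymerase III that mTORC1 inhibits, Rnf167 (1.65, edgeR adjusted p = 4.4e-06), a ubiquitin ligase for Sestrin2, and Pdpk1 (1.61, edgeR adjusted p = 1.5e-05), the kinase that activates AKT and the S6 kinases. The lower ones were Prr5 (-4.58, edgeR adjusted p = 3.6e-06), an mTORC2 subunit, Eif4b (-1.94, edgeR adjusted p = 1.0e-05), a translation initiation factor that S6 kinases phosphorylate, and Klhl22 (-1.75, edgeR adjusted p = 3.7e-05), which targets Depdc5 for degradation. The median of the 35 was -0.12 on the log2 scale.

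The genotype comparison at S3 asked whether the rest of the pathway differed once Nprl3 was lost. The targeted gene had 815, 648, 711 and 1043 normalised counts in WT S1 libraries (embryos 0, 1, 5 and 8), 381 and 389 in Nprl3+/- (embryos 3 and 4) and 9.54 and 20.3 in Nprl3-/- (embryos 2 and 9), a log2 fold change of -5.72 in the knockout (SE 0.43, edgeR adjusted p = 0.021). With 1 of these embryos left out the call was lost at log2 fold changes of -6.39 to -5.30, namely without WT embryo 0 (adjusted p = 0.15), WT embryo 5 (adjusted p = 0.088), or Nprl3-/- embryo 2 (adjusted p = 0.15) or 9 (adjusted p = 0.14). In Nprl3+/- it was -1.07 (SE 0.24, edgeR adjusted p = 0.91, DESeq2 adjusted p = 0.021), with both libraries below all WT libraries. At S3 it had 5138, 4409, 4495 and 6592 in WT, 4728 and 3886 in Nprl3+/- and 3386 and 3604 in Nprl3-/- (log2 fold change -0.55 in the knockout, edgeR adjusted p = 0.38). Enhancer-derived RNA is counted on the gene at S3, so that the S3 value checks nothing about the deletion, whereas the S1 values went with the labels in all 8 embryos.

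Of the 38 members tested at S3, none passed the threshold between Nprl3-/- and WT in edgeR, 3 had an unadjusted p under 0.05, and DESeq2 called 1, Eif4ebp1. Of all 11804 genes, 0.559% passed in edgeR, 8.52% had an unadjusted p under 0.05, where the members' 3 of 38 is near that share, and DESeq2 called 2.19%. Eif4ebp1 had 1115, 1357, 1556 and 670 normalised counts in WT S3 libraries and 3388 and 2801 in Nprl3-/-, 2.66 times the WT level in the fit (log2 fold change 1.41, SE 0.28, edgeR adjusted p = 0.090, DESeq2 adjusted p = 4.1e-04). Both knockout libraries lay above all WT libraries and above the Nprl3+/- libraries, at 1172 and 1544. With sex as a covariate, where 4.63% of all genes were called, the log2 fold change was 1.44 (edgeR adjusted p = 6.3e-04), and without the filter on low counts, where 1.52% were called, it was 1.40 (edgeR adjusted p = 5.5e-06). The sex term rests on 3 males and 3 females here, and the males of this comparison, WT embryos 0 and 8 and Nprl3-/- embryo 9, lay apart from the male Nprl3+/- embryos in some genes: Fnip2, chosen after its values were seen, had 783, 875 and 684 normalised counts at S3 in those 3, 372 to 440 in the females and 422 and 405 in Nprl3+/-. The part of this grouping in the calls made with the covariate, here and below, was not tested. The share of Eif4ebp1 in the 4E-BP transcripts was 77.5% and 71.3% at S3 in Nprl3-/-, above the highest WT library at 61.6%. Eif4ebp2 had 2588 and 2968 normalised counts, inside the WT range of 2230 to 3252.

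Rptor lay on the other side. It had 440 and 491 normalised counts in Nprl3-/- S3 libraries, below the WT values of 992, 611, 688 and 1105, with Nprl3+/- inside the WT range at 651 and 632 (log2 fold change in the knockout -0.85, SE 0.26, edgeR adjusted p = 0.30). The call was made with sex as a covariate (-0.81, edgeR adjusted p = 0.011) and without the filter on low counts (-0.86, edgeR adjusted p = 0.032). Among WT the males had the values 992 and 1105 and the females 611 and 688, and the Nprl3+/- males lay within the range of the females. Sesn2 had 532 and 735 against 457, 395, 348 and 460 in WT (0.63, SE 0.19, edgeR adjusted p = 0.31, and 0.021 with sex as a covariate), and without Nprl3-/- embryo 9 its log2 fold change was 0.38 (edgeR adjusted p = 0.68). Nprl2 had 734 and 639 against 451 to 678 (0.33, SE 0.19, edgeR adjusted p = 0.72, and 0.22 without Nprl3-/- embryo 2), and Rragd had 521 and 547 against 546 to 1002 (-0.46, SE 0.26, edgeR adjusted p = 0.72, and -0.30 without WT embryo 8). The libraries of the 2 genotypes did not overlap for 4 of the 38 members, higher for Eif4ebp1, Sesn2 and Wdr24 and lower for Rptor, and for 18.5% of all genes tested. An exact test of 2 against 4 libraries of a single gene cannot give a p under 0.0667. The median log2 fold change was 0.05 for the members and 0.01 for all genes. At S3 the 14 macrophage markers summed to 205 to 271 CPM in WT and 148 to 152 CPM in Nprl3-/-. Of 13 tested, 2 were called lower in edgeR (15.4%, against 0.559% of all genes), and the median log2 fold change was -1.34, with none above 0. The 10 hepatoblast markers summed to 156 to 755 and 67.5 to 203 CPM, with none called. The 8 erythroblast markers summed to 111100 to 136900 CPM in WT and 96980 to 103400 CPM in Nprl3-/-, without overlap, and all 8 had log2 fold changes below 0 with none called. The part of these lists in these differences was not tested.

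At S1 edgeR called none of the 40 members tested between Nprl3-/- and WT, 1 had an unadjusted p under 0.05, and DESeq2 called none, where the shares of all genes were 0.00712%, 2.53% and 0.321%. The smallest p belonged to Castor2 (chr5:134128550-134173182), a paralogue of the arginine sensor gene Castor1, with 28.6 and 35.4 normalised counts in Nprl3-/- and 10.2, 10.1, 14.3 and 17.1 in WT (log2 fold change 1.31, SE 0.38, edgeR adjusted p = 1.00). Raw counts were 39 and 56 against 11, 14, 19 and 26. At S3, where the gene was too low to test, its raw counts were 7 and 14 in Nprl3-/- and 10, 0, 1 and 1 in WT. After normalisation these were 13.7 and 24.4 against 13.2, 0, 1.18 and 2.23. The lower knockout library, that of embryo 2, was thus near WT embryo 0 at S3, and below it in raw counts. The Nprl3+/- libraries had 25.9 and 7.75 normalised counts at S1 and 1.80 and 3.38 at S3. The next 4 by p were Rragb (log2 fold change -0.49, SE 0.29), Nprl2 (0.30, SE 0.19), Deptor (0.35, SE 0.23) and Rragd (-1.26, SE 0.87), each with an edgeR adjusted p of 1.00, and 3 of them moved by over 1.5 times when 1 embryo was left out. Rragd had -0.62 without WT embryo 8, -0.70 without Nprl3-/- embryo 2 and -2.32 without Nprl3-/- embryo 9, Rragb had -0.31 without embryo 9, and Nprl2 had 0.16 without embryo 2. Castor2, Nprl2 and Deptor were the 3 members whose genotypes did not overlap, all higher in Nprl3-/-, where 9.84% of all genes did not overlap. Marker lists also moved at S1, with none of their genes called in edgeR. All 8 neutrophil markers tested were above 0 on the log2 scale (1573 to 1645 CPM in Nprl3-/- and 120 to 1275 CPM in WT). Below 0 were 7 of 8 erythroblast markers (1256 to 2098 and 1576 to 5383 CPM) and all 10 hepatoblast markers (24.6 to 140.1 and 45.4 to 280 CPM). Of these lists only the neutrophil sums did not overlap. The part of the lists in the members' differences was not tested. Ddit4 had 11 and 7 raw counts in Nprl3-/- S1 libraries and 0, 0, 5 and 5 in WT, too few to test.

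**Figure D4:**
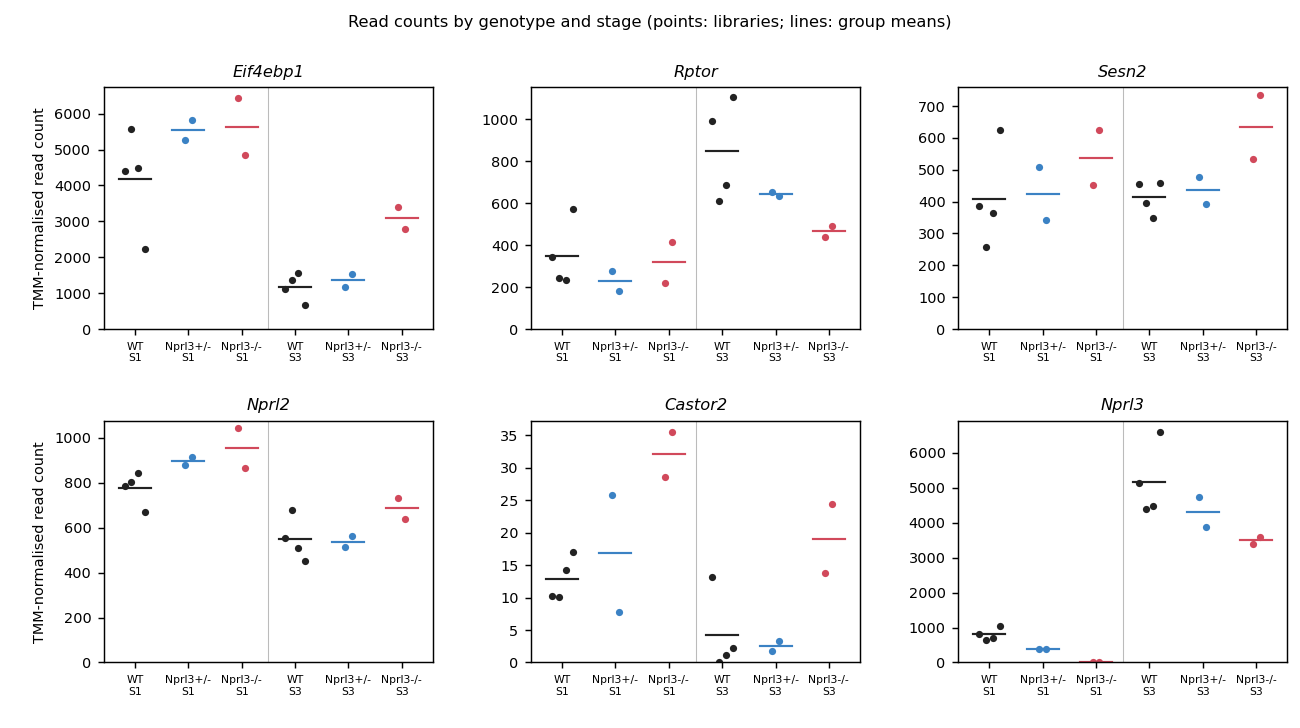
TMM-normalised read counts of 6 genes in every library by genotype and stage; points are libraries, horizontal lines group means, and each vertical axis starts at 0. The Nprl3-/- libraries of Eif4ebp1 at S3 (3388 and 2801) lie above all WT libraries (670 to 1556), those of Rptor lie below, and Nprl3 is near 0 in Nprl3-/- only at S1.

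The test of whether the knockout effect differed between the stages called 0 of 40 members, with 0 at an unadjusted p under 0.05 and 0 by DESeq2. The shares of all genes were 0.00742%, namely Nprl3, 3.11% and 0.0890%. Eif4ebp1 had the smallest p among the members: its difference was 1.41 on the log2 scale at S3 and 0.44 at S1, where Nprl3-/- had 6446 and 4841 normalised counts and WT 2225 to 5573 (difference of differences 0.96, SE 0.50, edgeR adjusted p = 1.00). Within embryos, Eif4ebp1 fell by 0.93 and 0.79 on the log2 scale in Nprl3-/-, by 2.17 and 1.91 in Nprl3+/- and by 1.52 to 2.04 in WT. Deptor (-0.69, SE 0.44), Rragb (-1.52, SE 1.00), Wdr59 (0.84, SE 0.62) and Rptor (-0.72, SE 0.54) followed, each with an edgeR adjusted p of 1.00. All 4 moved by over 1.5 times when 1 embryo was left out: Deptor to -0.36 without Nprl3-/- embryo 9, -1.13 without Nprl3-/- embryo 2 and -0.43 without WT embryo 0, Rptor to -0.31 without Nprl3-/- embryo 9, and Rragb to -0.73 and Wdr59 to 1.31 without WT embryo 0. The largest increases between the stages were also seen without Nprl3: Rragd rose by 6.28 and 5.25 within the Nprl3-/- embryos and Sesn1 by 2.54 and 2.55, where WT embryos had 4.59 to 6.62 and 2.23 to 2.67.

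In Nprl3+/- embryos edgeR called none of the 38 members at S3 and none of the 40 at S1, with 0 and 2 at an unadjusted p under 0.05, and DESeq2 called none at either stage. Of all genes, edgeR called 0% at both stages, 3.18% and 4.26% had an unadjusted p under 0.05 at S3 and S1, and DESeq2 called 0.00851% and 0.217%. These comparisons use the same WT libraries as those of the knockout. The hepatoblast markers summed to 21.4 to 35.4 CPM in Nprl3+/- and 45.4 to 280 CPM in WT at S1, with 7 of 10 lower without overlap, and 5 of 10 were lower without overlap at S3. The 8 erythroblast markers summed to 1395 to 1453 CPM in Nprl3+/- and 1576 to 5383 CPM in WT at S1, and the 9 megakaryocyte markers to 28.1 to 34.9 and 39.6 to 72.5 CPM, neither with overlap. The part of these lists in the differences below was not tested. At S3 the 5 smallest p belonged to Fnip1 (93.5 and 103 normalised counts against 115 to 188 in WT, log2 fold change -0.62), Fnip2 (422 and 405 against 402 to 875, -0.60), Lamtor4 (554 and 664 against 335 to 604, 0.44), Rptor (-0.41) and Mlst8 (-0.31), each with an edgeR adjusted p of 0.90. Without WT embryo 8 Fnip2 had -0.39, Rptor -0.25 and Mlst8 -0.19. The genotypes did not overlap for 6 of 38 members, 2 higher and 4 lower, where 13.2% of all genes did not. At S1 they were Fnip2 (110 and 87.0 against 124 to 262, -0.89), Rragd (5.04 and 3.44 against 5.27 to 38.7, -2.10), Fnip1 (-0.69), Depdc5 (-0.51) and Mtor (-0.49), each with an edgeR adjusted p of 0.91. Without WT embryo 1 Fnip1 had -0.42 and Mtor -0.24, without Nprl3+/- embryo 4 Fnip1 had -0.45, and without embryo 8 Depdc5 had -0.29. Here 8 of 40 did not overlap, 3 higher and 5 lower, and 18.8% of all genes did not. Adding sex sets the Nprl3+/- libraries against the male WT embryos 0 and 8 alone, and the WT females enter only the scaling, filter and spread. It gave 5 higher and 5 lower members of 38 at S3 in edgeR, where 18.1% of all genes were called. The members called included Fnip2 (-1.01, edgeR adjusted p = 0.0025), Rptor (-0.72, adjusted p = 0.0056) and Lamtor2 (0.76, adjusted p = 0.0037). At S3 the Nprl3+/- males lay nearer to the WT females than to the WT males for Fnip2 and Rptor, as given above, and the part of this in the calls was not tested.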

How the data were processed

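RNA from sorted foetal liver erythroblasts was amplified and poly(A)-selected libraries were sequenced as read pairs. The authors deposited raw read counts per gene, made with STAR 2.7.9 and featureCounts 1.6.4 on mm39 with the Ensembl annotation, without strand, so that a gene and an overlapping opposite-strand gene cannot be told apart; Rps6kb2, Mlst8 and Lamtor1 overlap neighbours over 23.7%, 22.5% and 18.7% of their exonic bases. The table held 20 libraries, of which 16 matched the sample labels and 4 were not used here. Retained genes had a mean normalised count above 10 in the libraries compared. TMM factors and the quasi-likelihood test came from edgeR 4.0.16 with R 4.3.3, fitted over all genes with Benjamini-Hochberg adjustment at 0.05, and DESeq2 1.42.0 was an alternative. The tests were run first on simulated data. All members are accounted for, with full statistics for those past the threshold. Where fewer than 5 passed, the 5 smallest p are given with at least a log2 fold change and an adjusted p. Of the further pathway genes, at most 3 per direction are named. Members and lists were chosen with earlier results of these data known. Both libraries of an embryo come from the same animal, and their deviations from the group means correlated with r of 0.069 to 0.35 in WT, 0.437 in Nprl3-/- and 0.049 in Nprl3+/-. P-values measure the spread between embryos.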

Additional observations from a re-analysis of the deposited data

Results flagged for a closer look

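Among the 86 sets of 4 WT libraries examined, 43 genes at 2 stages, 7 had 1 library far from the other 3 by Dixon's test, where chance alone flags about 1 in 20. In the S1 library of embryo 8, Depdc5 had 376 normalised counts against 202 to 220 in the others, Sec13 had 5439 against 7344 to 7694 and Lamtor3 had 2216 against 3227 to 3398. In the S1 library of embryo 1, Akt1s1 had 400.4 against 770 to 842 and Deptor had 298 against 215 to 223. In the S3 library of embryo 0, Castor2 had 13.2 against 0 to 2.23 and Ddit4 had 3.97 against 0 in each of the others, which are 10 and 3 raw counts. Of these flags, 5 fall in the S1 libraries of embryos 1 and 8, which also correlated least with the other WT libraries. The knockout effect on the counts of Nprl3 differed between the stages by 5.17 on the log2 scale in the interaction fit, being -5.72 at S1 and -0.55 at S3 in the separate fits.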

How the results depend on the processing

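None of the 19 members called between the stages, and none of the 5 members with the smallest p in each genotype comparison, changed direction under any alternative that gave it a value. Among the members not called between the stages, Seh1l (0.0055) and Eif4ebp2 (0.014) changed sign with RLE scaling, as they did in DESeq2, Sesn2 (-0.13), Fnip1 (-0.13) and Tbc1d7 (-0.012) with upper-quartile scaling, and Sesn2 (-0.022) when scaling factors were computed without globin, none of them called. In WT, the replicate block, with the 2 libraries of an embryo paired, gave 14 higher and 10 lower members (11 and 8 without it) and a median of 0.22; in the interaction fit it gave 0 and 0. Upper-quartile scaling moved the median of all genes between the stages from -0.08 to -0.24 and that of the members to 0.028, and gave a members' median of 0.011 for the knockout at S3. Leaving out 1 embryo gave 11 to 13 higher and 5 to 9 lower members between the stages, with a members' median of 0.11 to 0.23. In the same fits 3412 to 4294 of all genes were higher and 3971 to 4570 lower. The members' median was 0.013 to 0.036 for the knockout at S3. For Nprl3+/- at S3 it was -0.0236 to 0.0089, the highest without WT embryo 8. With 1 WT embryo left out the knockout counts stayed at 0. For the knockout at S3, members higher and lower were 1 and 0 in DESeq2 (2.19% of all genes called) and 1 and 1 without the filter (1.52%). With sex as a covariate they were 2 and 1 in either tool. Of all genes edgeR called 4.63% there, and DESeq2 called 308 higher and 422 lower of 11804. For Nprl3+/- at S3, sex gave 5 and 5 in edgeR (median -0.075), where 18.1% of all genes were called. DESeq2 with sex gave 7 and 4 (median -0.063), where 1171 and 977 of 11746 genes were called. At S1 sex gave 0 and 1 in edgeR (183 and 214 of 13818 genes) and 0 and 3 in DESeq2 (332 and 483). These fits set the Nprl3+/- males against WT embryos 0 and 8 alone, and the cause of the calls was not tested. The WT libraries that carry sex are few, and both Nprl3+/- embryos are male. With sex, edgeR called 547 genes in all for the knockout at S3, against 66 without it. The newer quasi-likelihood method of edgeR, chosen after seeing the data, left the members' counts as they were. Depth limits Castor2, Sesn3, Ddit4 and, at S3, Rragb, which had 2 and 1 raw counts in Nprl3-/-.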

Other observations

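Rragb at S3 was too low to test between genotypes, with 25.1, 9.90, 7.07 and 2.23 normalised counts in WT, 14.4 and 15.2 in Nprl3+/- and 3.92 and 1.74 in Nprl3-/-, so that 1 knockout library lay below the WT range and the other within it. Its share of the RagA and RagB transcripts at S1 was 4.46% and 5.13% in Nprl3-/-, below the WT range of 6.42% to 13.6%.

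The longest transcript of several members shares 100-base windows with transcripts of other annotated genes, between which reads cannot be told apart: 35.5% of the windows of Itfg2 (Nrip2), 29.1% of Lamtor4 (Trappc14), 28.0% of Lamtor1 (Lrrc51), 20.6% of Rps6kb2 (Ptprcap), 19.5% of Seh1l, 15.3% of Tsc2 (Pkd1), 14.7% of Mlst8 (Bricd5), 12.1% of Sesn1 (Cep57l1), 11.5% of Nprl3 (Mpg) and 11.1% of Rptor. For every other member the share was at most 6.4%, and it was 4.94% for Eif4ebp1.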
